A study of Mus musculus with 30 samples.

Results

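Ribosomal protein genes encode the proteins of the cytosolic ribosome, and 50 of them had a probe set of their own in a muscle culture time course of 0, 4, 12, 24 and 48 h. They were chosen by symbol, as genes named Rpl or Rps followed by a digit together with Rplp0, Rplp2 and Rpsa, without the Rps6k kinases and without symbols that mark pseudogenes, and each was read from its brightest single-gene probe set, on the A chip before the B chip. The 50 were part of 18193 genes with such a probe set on either chip. Of them 25 belong to the large subunit, 23 to the small subunit, and 2 carry the name without being a subunit protein (Rps19bp1, a partner of Rps19, and Rpl7l1, an assembly paralog of Rpl7). Of the 50 genes, 47 were bright enough to be tested, 46 on the A chip and Rps19bp1 on the B chip. Rplp1, Rpl3, Rpl5 and Rps27a had no probe set of their own and are not described here. A further 93 tested A probe sets list a ribosomal protein gene together with other genes and are given only as a group.

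The ribosome is built of a small subunit, which reads the messenger RNA, and a large subunit, which forms the peptide bonds, and each subunit needs nearly every one of its proteins in equal number. The mRNAs of these proteins are among the most abundant of any growing cell. They begin with a run of pyrimidines that lets the mTOR pathway set their translation, so their protein output can be regulated without a change in mRNA level.

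The samples were total RNA from cultured cells that the labels describe as leg muscle of mouse, collected at 0, 4, 12, 24 and 48 h, with 3 replicates at each hour and 1 array of each of 2 chips per replicate, 30 arrays in all. No strain, age, genotype, medium or starting event is given in the labels used here, and nothing says that replicates were separate cultures, so the p-values rest on a spread among arrays that may be technical only. All 7 muscle markers examined (Myog, Myod1, Des, Ckm, Acta1, Myh3 and Chrna1) were bright enough to be tested, with summed intensities of 38516 to 64861 per array, against 256 to 725 for the fibroblast markers (1 of 5 tested), 29.6 to 124 for the adipocyte markers (0 of 2 tested), 267 to 519 for the endothelial markers (2 of 4), 491 to 2839 for the pericyte markers (2 of 4), 177 to 351 for the macrophage and blood markers (1 of 3) and 133 to 261 for the Schwann cell markers (1 of 2). Replicate 3 stood apart from replicates 1 and 2 at every hour over much of the chip, with 33.9% of A probe sets called between them. All values are intensities, deposited after each array had been multiplied to reach the same trimmed mean. In such bulk RNA fewer cells of a type and less RNA per cell cannot be told apart. The 4 comparisons with 0 h share the 3 arrays at 0 h.

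The pyrimidine run that marks these mRNAs can be looked for in the DNA around the annotated start. RefSeq promoters of build GRCm38.p6 matched 44 of the 50 genes by gene identifier. Windows are printed for the 5 bright genes with the largest differences at 4 h that had an entry, and for Rps27 and its paralog Rps27l, the paralogs whose ratio moved most at 24 h. Each window runs 5′ to 3′ from 40 bases before the annotated start to 20 bases after it, and capitals mark the unbroken run of C and T that is longest within 30 bases of the start, the first where several are equal. Rps27l has 2 annotated starts, and the one with the longer run is shown. The strand and coordinates are those of GRCm38.p6, while the build behind the chips is not given in the sources used here.
Rpl41, chr10:128549149-128549208, minus strand: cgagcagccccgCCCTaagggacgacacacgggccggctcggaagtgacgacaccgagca
Rpl37a, chr1:72711220-72711279, plus strand: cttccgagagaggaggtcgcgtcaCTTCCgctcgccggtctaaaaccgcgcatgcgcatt
Rps26, chr10:128626487-128626546, minus strand: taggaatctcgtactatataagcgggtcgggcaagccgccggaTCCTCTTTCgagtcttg
Rps18, chr17:33955646-33955705, minus strand: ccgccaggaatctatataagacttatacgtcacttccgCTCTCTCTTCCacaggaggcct
Rps28, chr17:33824543-33824602, minus strand: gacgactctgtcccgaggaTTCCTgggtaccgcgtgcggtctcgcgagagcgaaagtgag
Rps27, chr3:90213629-90213688, minus strand: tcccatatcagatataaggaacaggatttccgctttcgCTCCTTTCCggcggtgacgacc
Rps27l, chr9:66946046-66946105, plus strand: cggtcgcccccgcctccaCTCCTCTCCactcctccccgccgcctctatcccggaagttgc
The runs in these windows differed widely in length. That of Rps18 held 11 bases, that of Rps27 held 9, and both spanned the annotated start. Those of Rps26 and Rps27l also held 9, those of Rpl37a and Rps28 held 5, and that of Rpl41 held 4. Over the 44 genes, the longest C or T run within 30 bases of the start had a median of 9 bases, against 6 bases in the other 9841 genes of the A chip with an entry. A run of at least 8 bases was present in 24 of the 44 (54.5%) and in 25.9% of the other genes. Within 10 bases of the start the shares were 34.1% and 9.57%. The letters CTTTCC, chosen after these windows were seen, stood on the coding strand within 50 bases of the start in 12 of the 44 genes (27.3%) and in 4.91% of the other genes, and on either strand (GGAAAG on the other) in 31.8% and 9.87%. These are counts of letters around annotated starts, and they carry no measurement of binding or translation.

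Most members were among the brightest signals on the A chip. Of the 46 genes tested there, 36 had a mean intensity of 5000 or more over the 15 arrays, 18 of each subunit, and they are called the bright genes here. The 10 others ran from 172 (Rpl27a) to 1961 (Rpl37). The median intensity of the bright genes on single arrays was 10444 to 14698, and their median rank was 99.6% to 99.7% of the A probe sets on every array. The brightest 1% of each A array was 227 probe sets, of which 105 to 115 (46.3% to 50.7%) listed a ribosomal protein gene, 31 to 34 of them members. The highest was Rpl41, which encodes the shortest ribosomal protein, with a mean of 18118, followed by Rpl38, a large subunit protein known for its role in translating Hox mRNAs, at 15247 and Rplp2 of the ribosomal stalk at 14803. Probe sets bind with different strength, so these intensities do not order the genes by transcript number. The 10 dim genes were Rpl37, Rpl7l1, Rps25, Rpl14, Rps4l, Rps6, Rpl39, Rpl12, Rps27 and Rpl27a, and all but Rpl37 were read by probe sets with the plain suffix _at. Of the 36 bright genes, 16 were read by _a_at sets, 14 by _x_at, 5 by _at and 1 by _s_at, where _x_at and _s_at mark sets that can bind transcripts of more than 1 gene, such as the many processed pseudogenes of this family.

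The 3 remaining members were not bright enough to be tested. Rpl3l, the paralog of Rpl3 known from adult heart and skeletal muscle, read 4, 42.8 and 2.4 at 0 h and 27.7, 10.5 and 3.5 at 48 h. Rpl39l, a paralog known from testis, read 12.7, 36.3 and 20.8 at 0 h, 2.4, 1.4 and 2.3 at 24 h and 40.8, 16.3 and 2.5 at 48 h. Rps16 was read only by a dim B probe set, at 30, 31.9 and 33.3 at 0 h and 19.6, 20.7 and 258 at 4 h. Rpl3l and Rpl39l lay at or below 42.8 on all 15 A arrays, under or near the pseudocount of 29, so no difference between hours could be read for them.

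Read from 1 probe set each, no ribosomal protein gene was called at any hour in the limma fit with hour as its factor. With replicate 3 as a further term Rps27 was called at 24 h and Rpl7 in the F test (adjusted p 0.0233 and 0.0462). A further, dimmer set of Rpl37a, described below, was called lower at 24 h with hour as the only factor. In the fit by hour, which tests each probe set on the log2 scale and adjusts p over the whole chip, 0 of the 46 A members passed an adjusted p of 0.05 at 4, 12, 24 or 48 h against 0 h. The smallest adjusted p were 0.884, 0.744, 0.0860 and 0.482 at these hours. In the F test over all hours 0 of 46 passed, with a smallest adjusted p of 0.128 (Rpl7). Of all 13576 tested A probe sets the share called was 0% at 4 h, 0% at 12 h, 2.67% at 24 h, 2.15% at 48 h and 1.97% in the F test. At an unadjusted p under 0.05 the A members numbered 20, 4, 2 and 0 of 46 at the 4 hours in turn, and 10 in the F test, against 4.94%, 6.56%, 16.4%, 14.9% and 13.6% of all A probe sets. The genes at 4 h therefore stood above the background only without adjustment, and at 24 and 48 h, when the chip as a whole held the most differences, they stood below it. Between neighbouring hours, 0 of 46 were called from 4 to 12 h, from 12 to 24 h or from 24 to 48 h (0%, 0% and 0.0147% of all A probe sets), with 3, 2 and 1 at an unadjusted p under 0.05 (4.77%, 6% and 7.93%). Rps19bp1 was not called on the B chip either, where 0%, 0.0074%, 0.851% and 1.13% of 13507 probe sets were called at the 4 hours.

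At 48 h the bright genes were at the 0 h level to within the precision of the arrays. Their median log2 difference was 0.01, with single genes between -0.19 and 0.12, and the 95% intervals of all 36 lay between -0.50 and 0.45, so a log2 difference of 1 lay outside the interval of every bright gene at 48 h. At 24 h the 36 intervals lay between -0.50 and 0.45 as well, and the median was 0.00084. All these intervals hold for the signal of the brightest set of each gene. In 9 of the genes 13 dimmer sets, under 5000, had a median of -0.08 at 48 h, with 4 above 0. A set of Rpl37a at 787 had -0.69 there, without a call. Whether signals at the top of the array follow the mRNA in full was not tested. Over all A probe sets as bright as these without a ribosomal protein gene (364 sets of mean intensity 5000 or more), single log2 differences ran from -1.42 to 1.91 at 48 h. The bright members spanned a narrower range than these other sets at each hour, a comparison of ranges over groups of unequal size and without a test.

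Across all 15 arrays the bright genes varied little, and less still once arrays were given a common distribution. The standard deviation of a bright gene's log2 level over the 15 arrays had a median of 0.18 with the deposited scaling, and 0.27 over all tested A probe sets. After quantile normalization, which gives every array the same distribution of values, it was 0.09, ranging from 0.04 to 0.19, while the median over all tested A probe sets stayed at 0.27 and that of the brightest 10% moved from 0.19 to 0.18. The spread of the bright genes thus depended on the scaling to an extent that the whole chip and its brightest 10% did not show. The bright genes sat at the top of that 10%, and no spread was taken over other sets as bright as these. At 4 h the median log2 difference of the 61 other sets of mean intensity 10000 or more also moved with the scaling, from 0.305 to 0.01. That of the 29 members as bright moved from 0.26 to -0.04. The standard deviation of the 10 dim genes over the 15 arrays had a median of 0.21 with the deposited scaling and 0.22 after quantile normalization.

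The deposited values placed the bright genes higher at 4 h than at 0 h. The median intensity of the 36 genes was 10582, 12439 and 10802 on the arrays at 0 h and 12143, 13957 and 14698 at 4 h, with means of 11274 ± 1014 and 13600 ± 1315 (SD, n = 3), so that 1 array at 4 h lay within the range at 0 h. At 12 h it was 12582 ± 255, at 24 h 11473 ± 627 and at 48 h 11573 ± 1461 (SD, n = 3). The bright genes made up 2.74% of all signal at 0 h, 3.19% at 4 h and 2.75% at 48 h. All 36 bright genes had a log2 difference above 0 at 4 h, from 0.02 (Rps27l) to 0.49 (Rpl41), with a median of 0.26, beside 46.8% of all tested A probe sets above 0. Of the 46 members, 41 were above 0, with a median of 0.24, and 20 had an unadjusted p under 0.05, all higher at 4 h, against 2.74% of all A probe sets higher at that level. The 10 dim genes showed no common direction, with 5 above 0 and a median of -0.01. With replicates 1 and 2 alone, the median over the 46 members at 4 h was 0.18, with 40 above 0 (48% of all A probe sets).

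**Figure D1:**
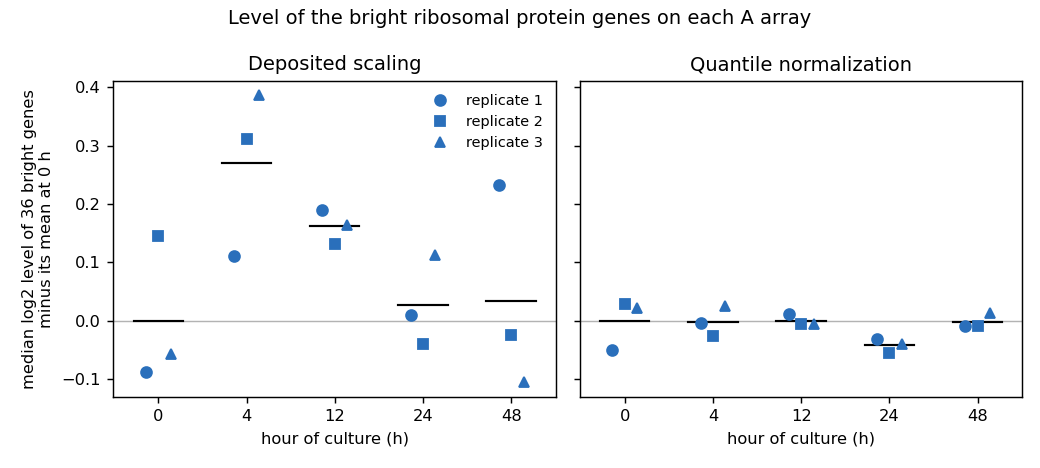
Median log2 level of the 36 bright ribosomal protein genes on each A array, minus its mean over the 3 arrays at 0 h, by hour of culture (h), with deposited scaling on the left and quantile normalization on the right. Each point is 1 array, its shape is the replicate number and the bar is the mean of 3 arrays. With deposited scaling the arrays at 4 h stand at 0.11, 0.31 and 0.39, and after quantile normalization all 15 arrays lie between -0.06 and 0.03.

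Individual members show the pattern at 4 h. Rpl7, a large subunit protein, with the smallest F test p of the family, read 9043, 7537 and 8135 at 0 h and 10343, 10873 and 12223 at 4 h. All 3 arrays at 4 h were above those at 0 h, and the log2 difference was 0.44 ± 0.09 (SE), with an adjusted p of 0.884 in limma. After quantile normalization the difference was 0.23. Further sets of Rpl7, at 9107 and 5119, had 0.21 and -0.21 in the deposited values. After quantile normalization they had 0.0026 and -0.26. With replicate 3 as a term in the F test, Rpl7 was the 1 member called, with an adjusted p of 0.0462, beside 14% of all A probe sets. Rpl41 read 15000.3, 19365 and 13410.4 at 0 h and 20064, 22964 and 23239.9 at 4 h, again without overlap. Its difference was 0.49 ± 0.15 (SE) with the deposited scaling and 0.08 after quantile normalization. Rpl4, whose protein lines the peptide exit tunnel, read 11344, 12171 and 11260.4 at 0 h and 13476, 15287 and 16082 at 4 h, a difference of 0.36 ± 0.11 (SE) that became 0.06. Rps26, a small subunit protein at the mRNA exit channel, read 9923, 12106 and 9146 at 0 h and 13059, 13671 and 14699 at 4 h, with differences of 0.42 ± 0.12 (SE) and 0.16. For each of the 4 genes the arrays at 4 h were higher than every array at 0 h in the deposited values, and for each the difference was smaller after quantile normalization. Rps18, in the head of the small subunit, had 0.41 and 0.12 under the 2 scalings, Rpl37a 0.42 and 0.14, and Rps28 0.37 and 0.07. A further set of Rpl37a, at 13016, had 0.20 and -0.08. Further sets of Rps18 had 0.39 and 0.11 (mean 12448) and 0.19 and -0.07 (mean 11076). Those of Rps28 had 0.46 and 0.17 (mean 13237) and 0.31 and 0.01 (mean 11908). In the deposited values 15 of the 46 members had all 3 arrays at 4 h above all 3 at 0 h (4.42% of all A probe sets) and 1 had them all below (4.77%). That gene was Rpl14, a dim large subunit member, which read 651, 577 and 659.6 at 0 h and 484, 521 and 562 at 4 h, a difference of -0.26 ± 0.16 (SE). At 12 h 7 members had all arrays above those at 0 h and 1, Rps27, had them below (5.84% and 5.3% of all A probe sets). At 24 h 2 were above, Rpl37 and Rpl7, and 1 below, Rps27 (9.58% and 11.8%), and at 48 h 0 were above and 0 below (9.89% and 8.35%).

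For other members the scaling turned the direction at 4 h. Rplp0, the base of the ribosomal stalk, read 12624, 12857 and 11463 at 0 h and 13532, 15566 and 14698 at 4 h, a difference of 0.24 ± 0.09 (SE) in the deposited values and -0.06 after quantile normalization. Its partner Rplp2 had 0.34 and 0.02. Rpsa, the small subunit protein also known as the laminin receptor, read 12163, 16360.1 and 13208 at 0 h, 13135, 20569 and 16810.3 at 4 h and 11776, 11784 and 12877 at 24 h. The high arrays were replicate 2 at 0 h and replicates 2 and 3 at 4 h, and the groups overlapped. Its difference at 4 h was 0.26 ± 0.15 (SE), and -0.06 after quantile normalization. At 24 h it was -0.19 ± 0.15 (SE) and -0.24, neither called, with adjusted p of 0.587 and 0.229 in limma. Rpl38, Rpl7a, Rps2, Rps14 and Rps4x likewise lay above 0 in the deposited values (0.30, 0.25, 0.25, 0.23 and 0.21) and below 0 after quantile normalization.

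Across the family, quantile normalization removed the difference at 4 h. The median over the 46 members went from 0.245 to -0.00236, the number above 0 from 41 to 22, and the number with an unadjusted p under 0.05 from 20 to 1 (4.17% of all A probe sets). Of all A probe sets 48.5% lay above 0 in that scaling. With it 0 of 46 members were called at 4, 12, 24 or 48 h in limma (0%, 0%, 2.54% and 2.46% of all A probe sets), and at an unadjusted p under 0.05 there were 2, 5 and 3 at 12, 24 and 48 h (6.64%, 15.8% and 15.4%). In these values, of the 46, 2 (Rpl37a and Rps18) had all 3 arrays at 4 h above those at 0 h and 2 (Rps14 and Rps3a1) had them below (4.35% and 4.09%). At 12 h 2 were above (Rpl37a and Rpl4) and 4 below (Rps27, Rps27l, Rps29 and Rps9), beside 6.36% and 4.94% of all A probe sets. At 24 h 1 was above (Rpl37) and 6 below (Rps27, Rps27l, Rpsa, Rpl13a, Rpl8 and Rps9), beside 10.9% and 9.6%, and at 48 h 0 were above and 5 below (Rps27l, Rps14, Rps2, Rps29 and Rps3), beside 8.68% and 9.48%. At 12, 24 and 48 h more members thus lay below 0 h in this scaling than in the deposited values. The counts at 24 and 48 h, 6 and 5 of 46, were close to the shares of all A probe sets, and a decline of the family was not tested. The sign of 23 of the members differed between the scalings at 4 h, of 18 at 12 h, of 9 at 24 h and of 10 at 48 h. At 12 h the median went from 0.11 to -0.01, at 24 h from -0.000895 to -0.05 and at 48 h from 0.01 to -0.02. Median centring, which moves each array by a constant and leaves the upper end of its distribution in place, gave 0.27 at 4 h. Because ribosomal protein probe sets make up 46.3% to 50.7% of the brightest 1%, a common shift of the family and a shift of the upper end of the array are partly the same measurement, and quantile normalization takes out both.

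**Figure D2:**
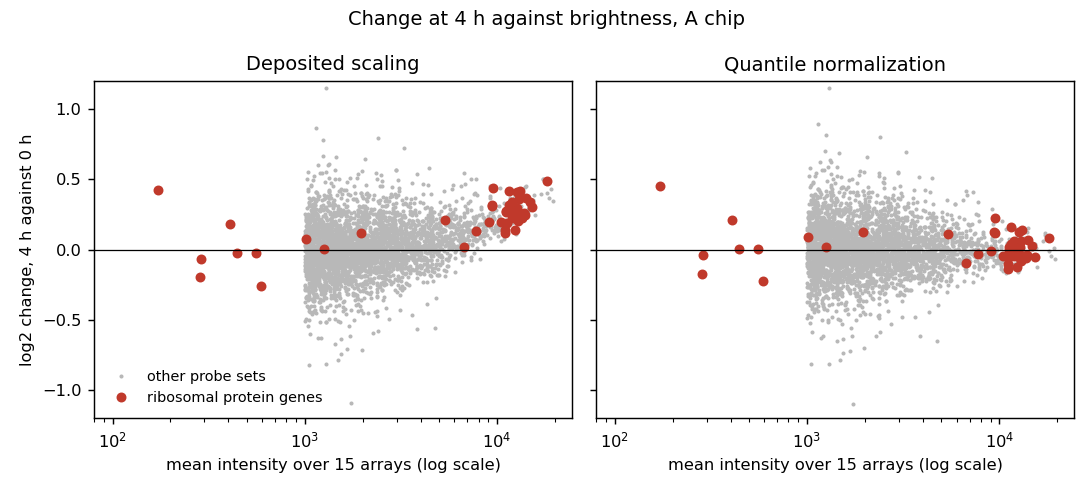
Log2 change at 4 h against 0 h plotted against mean intensity over 15 A arrays (log scale), with deposited scaling on the left and quantile normalization on the right. Red points are the 46 ribosomal protein genes, and grey points are tested A probe sets of mean intensity 1000 or more that list no ribosomal protein gene. With deposited scaling both groups bend upward at the bright end, where all 29 members and all 61 other sets of mean intensity 10000 or more lie above 0.

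Other abundant transcripts of the same brightness also lay higher at 4 h, by a similar amount. Among A probe sets of mean intensity 10000 or more, the 61 without a ribosomal protein gene had a median log2 difference of 0.30 in the deposited values, with 61 of 61 above 0, and the 29 members a median of 0.26, with 29 of 29 above 0. After quantile normalization the medians were 0.01 and -0.04. Among the 364 other sets of 5000 or more the median was 0.16, and over the brightest 10% of the tested sets without those that list a ribosomal protein gene (1214 sets) it was 0.08. The probe sets that list a ribosomal protein gene with other genes gave 0.23 in the 72 of them that were bright. The array controls for beta-actin and Gapdh, which are not part of translation, went from 13714 ± 1455 to 17298.5 ± 1558 and from 12678 ± 1313 to 15009.5 ± 1309 (SD, n = 3) in mean intensity between 0 and 4 h on the A chip. The 99th percentile of the arrays went from 7990 ± 434 to 9128 ± 551 (SD, n = 3). On the B chip, which holds few bright members, the brightest 10% had a median of -0.01 at 4 h, while the same controls went from 74305 ± 3026 to 90416 ± 15688 for beta-actin and from 67215 ± 3016 to 76092 ± 12530 for Gapdh (SD, n = 3). The 3 arrays of the B chip at 4 h lay above all at 0 h for beta-actin, and the groups overlapped for Gapdh. The median rank of the bright genes was 99.678% at 0 h and 99.675% at 4 h. Since these genes lie at the top of the array, where ribosomal protein sets are so many, a common shift of the family could barely move that rank. The part of the whole upper end of the arrays in the values of the members at 4 h was not tested beyond these comparisons.

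Probe sets of different brightness for the same gene did not move alike. On the A chip 15 of the bright genes had further tested single-gene probe sets that were themselves at 5000 or more, 29 sets in all, and their median log2 difference at 4 h was 0.20, with 25 above 0. In 9 bright genes further sets lay under 5000, 13 sets in all, and their median at 4 h was 0.02, with 8 above 0, where the brightest sets of the same genes had 0.23. The further set gave a smaller value than the brightest set of its gene in 12 of these 13 dimmer sets and in 24 of the 29 brighter ones. Rpl27, a large subunit protein, gave 0.23 from its brightest set (mean 11978) and -0.02 and 0.02 from sets at 3292 and 2678. Rpl41 gave 0.49 from its brightest set, 0.30 from a set at 9302 and 0.22 from a set at 343. After quantile normalization the medians of the brighter and dimmer further sets were -0.03 and 0.03. At 24 h a dim set of Rpl37a (mean 787) was called lower, at -1.64 (adjusted p 0.00385 in limma), and had -1.59 after quantile normalization. The brightest set of Rpl37a and its next set, at 13016, had 0.10 and 0.06 in the deposited values. Over the 13 dimmer further sets the median at 24 h was -0.18, with 3 above 0, and over the 29 brighter ones 0.05, with 22 above 0.

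**Figure D3:**
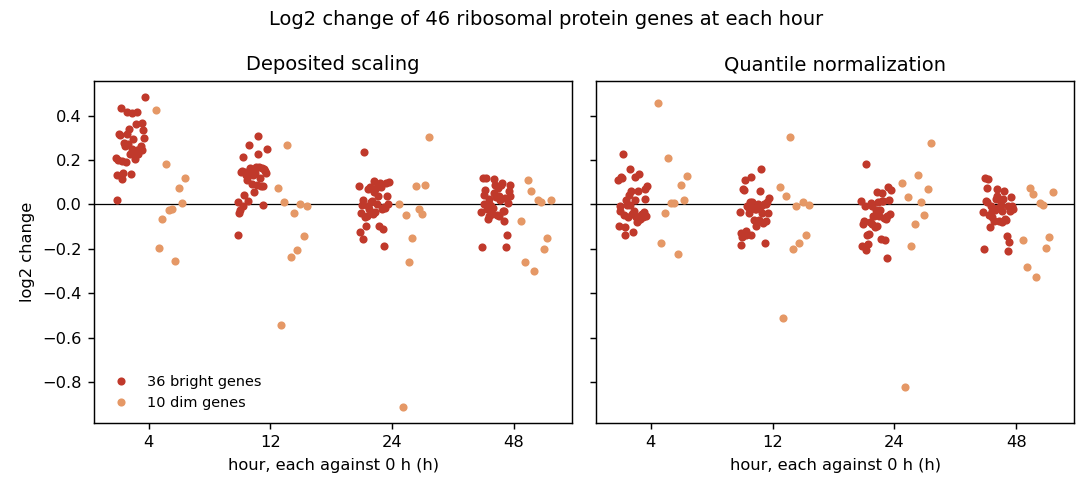
Log2 change of the 46 ribosomal protein genes of the A chip at 4, 12, 24 and 48 h, each against 0 h, with deposited scaling on the left and quantile normalization on the right. Each point is a gene, with the 36 bright genes in red and the 10 dim genes in orange, in order of mean intensity from left to right within each group. The bright genes lie above 0 at 4 h with deposited scaling alone, and the lowest orange point at 12 h and at 24 h is Rps27.

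The 2 subunits were close to each other at every hour. At 4 h the large subunit had a median log2 difference of 0.25 (21 of 23 above 0) and the small subunit 0.23 (19 of 22). At 12 h the medians were 0.14 and 0.07, and at 24 h they were -0.000390 and -0.00898. At 48 h the large subunit had 0.04 with 17 of 23 above 0, and the small subunit -0.03 with 7 of 22 above 0. After quantile normalization the medians at 48 h were -0.00145 and -0.06, with 11 of 23 and 5 of 22 above 0. Of all A probe sets 51% and 47.8% lay above 0 at 48 h in the 2 scalings. In both scalings the small subunit median was below the large subunit median at each of the 4 hours. The difference between the subunits was not tested, since genes of 1 array are not replicates.

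Rps27, a small subunit protein with a zinc finger, had the largest difference at 24 h of any member as read from its brightest set. It read 438, 297 and 367 at 0 h, 332, 319 and 289 at 4 h, 235, 278 and 212 at 12 h, 189, 158 and 192 at 24 h and 502, 174 and 297 at 48 h. The arrays at 12 and at 24 h were all below those at 0 h, and those at 48 h spread over the whole range. The log2 difference at 24 h was -0.91 ± 0.26 (SE) in limma, with an adjusted p of 0.0860, and -0.82 after quantile normalization, with an adjusted p of 0.129. With replicate 3 as a term in the fit the difference was the same and the adjusted p 0.0233, and Rps27 was then the 1 member called at 24 h, beside 13% of all A probe sets. Without replicate 1 or without replicate 2 at 48 h the adjusted p was 0.0269 and 0.0293. A bright probe set that lists Rps27 with a second gene did not show this difference, reading 9418, 10721 and 10237 at 0 h and 9569.5, 9578 and 10785 at 24 h on the A chip, a log2 difference of -0.02. On the B chip, which also carries this set, the difference at 24 h was 0.20. On the A chip the 2 sets thus differed at 24 h in size, and which of them follows the Rps27 mRNA was not tested.

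Its paralog Rps27l, a gene induced by p53, was bright, and its direction against 0 h was downward at the later hours without a call. It read 7269, 7466 and 6569.8 at 0 h, 6241, 6234 and 7051 at 24 h and 7112, 5912 and 5673 at 48 h, with log2 differences of -0.13 ± 0.12 (SE) at 24 h and -0.19 ± 0.12 (SE) at 48 h, and it was the bright gene with the smallest difference at 4 h. After quantile normalization the differences were -0.18, -0.19 and -0.20 at 12, 24 and 48 h, with adjusted p of 0.747, 0.254 and 0.222 in limma, and all 3 arrays at each of these hours lay below those at 0 h. All 3 of its tested probe sets lay below 0 at these hours in both scalings. Set to 0 at 0 h, the log2 ratio of Rps27l to Rps27 was 0.66, 0.88 and 0.82 on the arrays at 24 h, a mean of 0.79 ± 0.11 (SD, n = 3), against ± 0.30 between the arrays at 0 h, and it was 0.07 ± 0.57 (SD, n = 3) at 48 h. This ratio sets a bright gene over the dim Rps27 set and rests on that set. The bright set that lists Rps27 with a second gene had -0.02 at 24 h on the A chip, beside -0.13 for Rps27l, and so shows no such separation. Rpl7 and its assembly paralog Rpl7l1 formed the other pair with a separation. Rpl7l1 read 1365, 1162 and 1314 at 0 h and 1297, 1183 and 1377 at 4 h. The log2 ratio of Rpl7l1 to Rpl7 was -0.31, -0.51 and -0.47 on the arrays at 4 h, a mean of -0.43 ± 0.11 (SD, n = 3), with ± 0.05 at 0 h, and -0.35 ± 0.24, -0.15 ± 0.18 and -0.27 ± 0.18 (SD, n = 3) at 12, 24 and 48 h. As Rpl7 is a bright gene and Rpl7l1 a dim one, this ratio moves with the bright end of the array as well. After quantile normalization the 2 genes differed at 4 h by 0.23 and 0.02 from their own 0 h levels. This pair was read from the brightest set of Rpl7, while its sets at 9107 and 5119 had 0.21 and -0.21 at 4 h in the deposited values. The ratio of Rpl22l1 to Rpl22 had means of 0.08, 0.05, 0.12 and -0.15 at the 4 later hours against an SD of 0.38 at 0 h, and that of Rps4l to Rps4x had -0.23, -0.13, 0.18 and -0.000245 against an SD of 0.56.

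**Figure D4:**
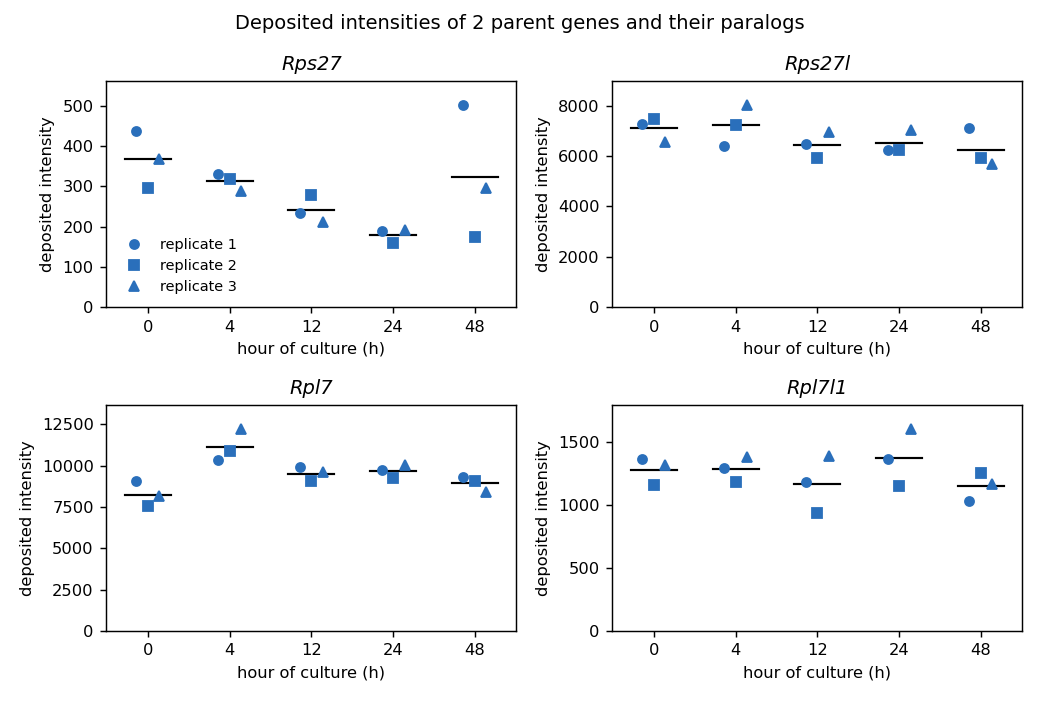
Deposited intensities of Rps27 and its paralog Rps27l and of Rpl7 and its paralog Rpl7l1 by hour of culture (h), on axes that start at 0. Each point is 1 A array, its shape is the replicate number and the bar is the mean of 3 arrays. Rps27 reads 158 to 192 at 24 h and 297 to 438 at 0 h, and Rpl7 reads 10343 to 12223 at 4 h and 7537 to 9043 at 0 h.

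Among the dim members, Rps6, the small subunit protein phosphorylated by the S6 kinases, read 492, 522 and 448 at 0 h and 300.1, 395 and 495 at 48 h, with a log2 difference of -0.30 ± 0.19 (SE) and an adjusted p of 0.496 in limma. Its arrays at 48 h overlapped those at 0 h. Rpl37, a large subunit protein with a zinc finger, read 1779, 1735 and 1988 at 0 h and 2462, 2074 and 2278 at 24 h. All 3 arrays at 24 h were higher, and the difference was 0.30 ± 0.14 (SE), with an adjusted p of 0.304. Rps25, a small subunit protein used by some viral internal ribosome entry sites, read 829.6, 1036 and 1247 at 0 h and 942, 836 and 882 at 48 h, a difference of -0.20 ± 0.18 (SE). Rpl39 had -0.26 ± 0.26 (SE) at 24 h, and Rpl27a, the dimmest of the tested members, 0.43 ± 0.26 (SE) at 4 h and -0.07 at 48 h. Rps19bp1 on the B chip read 2680.2, 3634 and 4487 at 0 h and 4585, 4439 and 3673 at 24 h, a difference of 0.25 ± 0.18 (SE). Each SE of these genes exceeded the 0.12 median SE of the bright genes at 4 h.

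Members known for a role beyond the ribosome or in inherited anaemia lay above 0 at 4 h, as all bright genes did, and near 0 at 48 h in the deposited values. At 4 h Rpl11 (0.31), Rpl13a (0.34) and Rps14 (0.23) had unadjusted p of 0.0454, 0.0323 and 0.0375 in limma and were not called, with adjusted p of 0.981, 0.951 and 0.967. Rpl11, which binds the p53 regulator Mdm2, read 7485, 10171 and 9199 at 0 h, 7284, 7558 and 9151 at 24 h and 11164, 8571 and 8361 at 48 h, and its log2 differences were -0.16 ± 0.14 and 0.06 ± 0.14 (SE). Rpl13a, known from the repression of interferon-induced mRNAs, had 0.11 ± 0.14 (SE) at 48 h, where replicate 1 read 15011 and the other arrays 10564 and 10539.8. Rps19 and Rps14, whose loss causes anaemia in humans, had -0.07 ± 0.13 and -0.05 ± 0.10 (SE) at 48 h. Rpl22 and its paralog Rpl22l1 had 0.12 ± 0.16 and -0.03 ± 0.17 (SE). Each of these 6 differences at 48 h was smaller than its own SE.

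The split between replicate 3 and the other replicates, which ran through the chip, was small in the bright genes. With hour in the fit, replicate 3 against replicates 1 and 2 gave 1 called member of 46, against 33.9% of all A probe sets (4606 of 13576). The 36 bright genes had differences of -0.10 to 0.10, with a median size of 0.04. The median size was 0.19 in the 10 dim genes and 0.20 over all A probe sets, of which 15.8% exceeded 0.5. No comparison was made with other sets as bright as the bright genes. The called member was Rps4l, a paralog of Rps4x, with a log2 difference of 0.72 and an adjusted p of 5.68e-05 in limma. It read 381, 489.5 and 805 at 0 h, 353, 476 and 822 at 12 h and 503, 477 and 656 at 48 h in replicates 1, 2 and 3, with replicate 3 the highest at every hour, and Rps4x read 12375, 13049.7 and 11952 at 0 h. Rpl12, Rps25 and Rps6 had differences of 0.26, 0.23 and 0.24 with adjusted p of 0.0574, 0.0788 and 0.0868. After quantile normalization Rpl12 was called as well, beside 34.1% of all A probe sets.

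**Figure D5:**
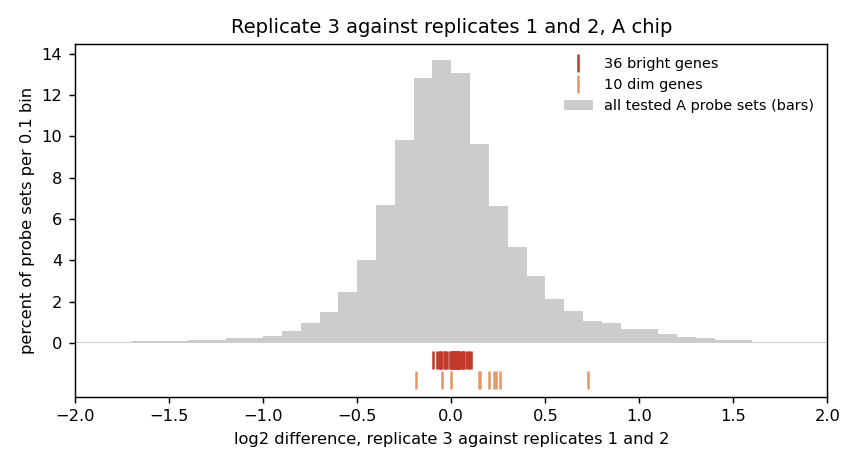
Log2 difference of replicate 3 against replicates 1 and 2 on the A chip, with hour in the fit. Grey bars give the percent of all 13576 tested probe sets in bins of 0.1, and the tick marks under them are the 36 bright and 10 dim ribosomal protein genes. The bright genes lie between -0.10 and 0.10, and the isolated orange mark at 0.72 is Rps4l.

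Genes that work with the ribosomal proteins were read from lists chosen by function. Fau, a small subunit protein outside the symbol rule, read a mean of 10418 at 0 h and 12008 at 4 h, with log2 differences of 0.21 in the deposited values and -0.04 after quantile normalization. Of 17 genes outside the rule whose mRNAs carry the pyrimidine run, Fau among them, with Eef1a1, the elongation factor that brings aminoacyl-tRNA to the ribosome, and the growth-related Tpt1 as examples, 14 were above 0 at 4 h with a median of 0.15, and 4 after quantile normalization with a median of -0.05. Eef1a1 and Tpt1, the brightest of them, had 0.37 and 0.40 in the deposited values and -0.05 and -0.01 after quantile normalization. The 7 elongation factors had a median of 0.07 at 4 h. The 25 genes of ribosome assembly and rRNA synthesis, which are dimmer, had -0.01, with 12 above 0, and the 11 regulators 0.19, with 7 above 0. In the limma fit 0 genes of these lists were called at 4, 12, 24 or 48 h, and at an unadjusted p under 0.05 the elongation factors numbered 1, 1, 2 and 2 of 7, the pyrimidine-run genes 3, 0, 0 and 0 of 17, the regulators 3, 1, 4 and 3 of 11 and the assembly genes 2, 2, 2 and 4 of 25. With replicate 3 as a term in limma, 2 of the 11 regulators rose at 24 h, Rptor, the scaffold of mTOR complex 1 (log2 difference 0.60, adjusted p 0.0107, on the B chip), and its activator Rheb (0.38, adjusted p 0.0430). Eef2k, the kinase of elongation factor 2 (-0.62, adjusted p 0.0125), and the RNA polymerase subunit Polr1c (-0.51, adjusted p 0.00882) fell at 24 h in that fit. At 48 h, 3 of 25 assembly genes rose, Nop58 (0.60, adjusted p 0.0151), Tsr1 (0.47, adjusted p 0.0401) and Gnl3 (0.42, adjusted p 0.0452), as did 1 regulator, Eif4ebp2 (0.62, adjusted p 0.0258), a repressor of cap-dependent translation. These calls stand beside 13% of all A probe sets called at 24 h and 9.79% at 48 h in that fit, and 4.12% and 5.25% of B probe sets.

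Some other readouts differed between the hours. The 18S rRNA control probe sets of the A chip, which report ribosomal RNA in the labelled target, had a mean intensity of 684 ± 577 at 0 h, 1491 ± 1008 at 4 h, 227 ± 77.2 at 12 h, 725 ± 972 at 24 h and 4119 ± 516 at 48 h (SD, n = 3). In the mean of the 3 control sets the 3 arrays at 48 h, where the bright members had a median log2 difference of 0.01, were above all others. The middle set alone overlapped. The log2 ratio of the 3′ to the 5′ control probe set, a sign of RNA integrity, was -0.33 to -0.21 for Gapdh and 0.03 to 0.23 for beta-actin over the 15 arrays. Among the muscle markers, Ckm (1.61, adjusted p 0.0202) and Myh3 (1.28, adjusted p 0.00510) rose at 24 h in limma, and Myh3 (1.10, adjusted p 0.0121) at 48 h. Of the 7 muscle markers 6 lay above 0 at 24 h and 4 at 48 h, and the others were not called in that fit. The summed pericyte markers were 650.4 to 2726 at 0 h and 508 to 841 at 48 h, where Rgs5 (-1.73) was not called in that fit (adjusted p 0.678). With replicate 3 as a term Rgs5, 1 of the 2 pericyte markers tested, fell at 24 h (-1.90, adjusted p 3.04e-05) and at 48 h (-1.73, adjusted p 8.01e-05). The other was not called. With that term 3 of 7 muscle markers were called higher at 24 h, and 2 were called higher and 1 lower at 48 h. The 1 fibroblast marker tested was called higher at 48 h (0.80). In that fit 13% and 9.79% of A probe sets and 4.12% and 5.25% of B probe sets were called at 24 and 48 h. The part of these readouts in the ribosomal protein values was not tested.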

How the data were processed

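Total RNA was hybridised to a pair of mouse Affymetrix chips, A and B, 15 arrays each, and the deposited intensity of each probe set, on a linear scale, was used as it stood. Each array's trimmed mean (2% off either end) came to the same value, so the authors had scaled whole arrays. The sources used here name neither software nor build. Probe sets were named through the platform annotation. Intensities plus a pseudocount (29 on A, 54 on B, the 20th percentile) were put on the log2 scale, so differences of dim genes are understated. The upper 60% of probe sets by mean (13576 and 13507) entered limma 3.58.1 in R 4.3.3, with hour as factor over all 15 arrays of a chip, two-sided, Benjamini-Hochberg adjusted within chip and comparison, called at 0.05. The script was tested on simulated data. An exact test of 3 against 3 arrays cannot go below p = 0.1, so medians and ratios carry none. Alternatives covered scaling, pseudocount, filter, probe set choice, replicate terms and leaving out arrays. Members and lists were chosen with earlier results of these data known. Named are called members, a list of family members and paralogs, the extremes in level and at 24 and 48 h, and those moved most by scaling; Rps26, Rps18, Rpl37a, Rps28, Rps3, Rps3a1, Rps9, Rps29, Rpl8, Rpl27 and Rpl14 were added after their values were seen.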

Additional observations from a re-analysis of the deposited data

Results flagged for a closer look

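The 18S rRNA control probe sets, which no comparison of the ribosomal protein genes uses, stood out at 48 h on both chips. Their mean intensity at 48 h was 4119 on the A chip and 20842 on the B chip, against 684 and 3451 at 0 h. In the mean of the 3 control sets, all 3 arrays at 48 h were above every array at the other hours on either chip. The middle set alone overlapped. It read 506 in replicate 1 at 48 h and 532 in replicate 2 at 4 h on the A chip. On the B chip it read 2392 in replicate 1 at 48 h and 2799 in replicate 3 at 4 h.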

How the results depend on the processing

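With replicate numbers as a block, with replicate 3 as a term, with either of these after quantile normalization, with array weights, or with the mean of all tested probe sets of a gene, 1 member was called at 24 h in place of 0, and leaving out 1 array gave 0 to 1. The F test called 1 with replicate 3 as a term, 5 with array weights and 1 with the mean of probe sets. Replicate 3 against replicates 1 and 2 called 2 after quantile normalization, 2 after median centring, 2 without the intensity trend, 4 with the mean of probe sets, 3 without sets ending in _x_at or _s_at, and 1 to 2 when 1 array was left out. Same-numbered arrays correlated as low as 0.04 on the A chip and 0.0026 on the B chip, both among replicate 1. On the A chip the median correlation was 0.365 within replicate 1, 0.359 within replicate 2 and 0.365 between them. On the B chip these medians were 0.102, 0.13 and 0.109, so no pairing by number was seen for replicates 1 and 2. Replicate 3 arrays correlated at 0.475 to 0.726 and 0.227 to 0.432 across hours. The replicate block gave Rps27 at 24 h an adjusted p of 0.0150 in limma, and it called 0 members in the F test. The median over 47 members at 4 h, 0.24, was -0.0031 after quantile normalization, also with the replicate block or the replicate 3 term, and the median at 12 h, 0.11, was -0.014 under the same settings. Leaving out 1 array gave medians of 0.19 to 0.31 at 4 h, 0.04 to 0.17 at 12 h, -0.06 to 0.07 at 24 h and -0.08 to 0.05 at 48 h. At 4 h the direction turned after quantile normalization, with or without either term, for Rplp0 (-0.065), Rpsa (-0.058), Rpl22 (-0.029), Rps14 (-0.058), Rps4x (-0.079), Rpl38 (-0.051), Rpl7a (-0.045) and Rps2 (-0.048), and the cause was not tested beyond the comparison with other bright probe sets. With bright members only, chosen after seeing the data, the medians were 0.26, 0.14, 0.00084 and 0.01 at the 4 hours. Of the other values of named members under an alternative, 749 kept direction and side of the threshold, and 17 were classed as stronger than in the main fit. Dim members limit the precision most, with 95% intervals from -1.48 to 0.79 at 24 h, and 3 arrays per hour bound every comparison.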
